A study of Mus musculus with 60 samples.

Results

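Plekhg4, Sult1a1, Etnppl, Btbd17 and Casq2 are 5 protein-coding genes of the 18088 genes measured in mouse prefrontal cortex. They were chosen by the size of their lithium difference in a test over all genes of the series, so their lithium differences are described here and not tested. Poly(A) RNA came from C57BL/6J mice at postnatal day 25. The mice were labelled HT (heterozygous) or WT (wild type) for Trip12, a ubiquitin ligase gene, and between postnatal days 3 and 24 took in vehicle, fluoxetine or lithium with their mother's milk. Crossing 2 genotypes, 3 treatments and both sexes gave 12 groups of 5 libraries, 60 in all. The labels give neither the Trip12 allele, the drug doses nor the animals and litters behind the libraries, so the spread behind each p-value is that between these samples and may be technical. Fluoxetine is a selective serotonin reuptake inhibitor. Lithium, given against bipolar disorder, inhibits the kinases of the glycogen synthase kinase 3 family, inositol monophosphatase and the nucleotidase Bpnt1.

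The 5 genes belong to different processes. Plekhg4 encodes a guanine nucleotide exchange factor with a pleckstrin homology domain. Sult1a1 encodes a cytosolic sulfotransferase that moves a sulfonate group from the donor PAPS onto phenols, and Bpnt1 degrades the product left by the donor. Etnppl encodes the lyase that breaks down phosphoethanolamine, an intermediate of phospholipid synthesis, and in brain it is known as an astrocyte gene. Btbd17 encodes a protein with a BTB domain. Casq2 encodes calsequestrin 2, the calcium-binding protein of the calcium store best known from heart muscle, where it works beside the ryanodine receptor.

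Values are the deposited DESeq2 normalized counts, that is reads per gene divided by 1 size factor per library. Plekhg4 (ENSMUSG00000014782, GRCm38 chr8:105373274-105382862, plus strand) had a mean of 97.4 normalized counts over the 60 libraries. Sult1a1 (ENSMUSG00000030711, chr7:126672865-126676432, minus strand) had 311, Etnppl (ENSMUSG00000019232, chr3:130617448-130637521, plus strand) 511, Btbd17 (ENSMUSG00000000202, chr11:114791217-114795945, minus strand) 351 and Casq2 (ENSMUSG00000027861, chr3:102086415-102146514, plus strand) 63.2. Per kilobase of annotated exon the mean level was highest for Sult1a1 (207 normalized counts), followed by Btbd17 (110.1), Etnppl (61.9), Casq2 (23.1) and Plekhg4 (17.8). The fewest reads behind a value were 30 for Casq2 and 42 for Plekhg4, against at least 100 for the other 3 genes. All 5 passed the filter on low values. No source used here states a stranded count, and 56 exon bases of Plekhg4 are shared with Kctd19 and 61 of Sult1a1 with Sgf29, both on the opposite strand.

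The 250 bases before the RefSeq start (GRCm38.p6) are shown for the 3 genes with the widest lithium differences. A glucocorticoid motif is marked because Sult1a1 varied together with glucocorticoid-induced genes across libraries. How closely the others varied with those genes is not given here. Each sequence is printed 5′ to 3′ on the gene's own strand. The windows lie at chr7:126676419-126676668 (minus strand) for Sult1a1, chr8:105374977-105375226 (plus strand) for Plekhg4, inside the annotated gene and mostly in an intron of its longer transcripts, and chr3:130617198-130617447 (plus strand) for the first of 2 windows of Etnppl. Capitals mark AGAACA or its reverse complement TGTTCT, the core repeated in the glucocorticoid response element.
Sult1a1: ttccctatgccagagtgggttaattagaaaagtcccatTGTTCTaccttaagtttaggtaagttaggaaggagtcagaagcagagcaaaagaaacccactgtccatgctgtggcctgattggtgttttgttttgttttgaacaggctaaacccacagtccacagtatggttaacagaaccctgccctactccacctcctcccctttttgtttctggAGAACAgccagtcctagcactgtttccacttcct
Plekhg4: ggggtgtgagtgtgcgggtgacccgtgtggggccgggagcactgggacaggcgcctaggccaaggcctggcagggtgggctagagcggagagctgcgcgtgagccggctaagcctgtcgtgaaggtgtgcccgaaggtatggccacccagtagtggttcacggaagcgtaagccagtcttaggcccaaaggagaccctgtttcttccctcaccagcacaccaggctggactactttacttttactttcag
Etnppl: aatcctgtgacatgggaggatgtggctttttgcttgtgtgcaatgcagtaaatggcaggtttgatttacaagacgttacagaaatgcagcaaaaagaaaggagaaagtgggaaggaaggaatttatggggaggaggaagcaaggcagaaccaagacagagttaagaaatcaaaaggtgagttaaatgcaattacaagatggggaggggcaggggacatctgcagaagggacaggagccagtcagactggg
Of the 5 genes only Sult1a1 held these letters, at 34 (AGAACA) and 212 (TGTTCT) bases before its start. This core is common: 19.0% of 32851 mouse promoter windows of 300 bases (250 before and 50 after a start) held it on either strand. Other motifs were searched as exact letters on both strands, and those letters were found in no window of the 5 genes. Variants, such as the TATATAAG in the window of Btbd17, were not searched. The TCF/LEF motif ATCAAAG was held by 3.73% of windows. The cyclic AMP response element TGACGTCA was held by 1.79%. The box named for its letters TATAAA was held by 13.6%. A match is only a match of letters.

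Depth followed treatment. Vehicle libraries held 26591584 to 30985097 reads, fluoxetine libraries 32654674 to 36624113 and lithium libraries 25135647 to 35858996. Fluoxetine and vehicle libraries did not overlap in depth, so depth and drug cannot be told apart in their comparison. The same held for lithium and vehicle in females (at least 32090916 against at most 30985097 reads), while in males these treatments overlapped. Under lithium, WT females (at least 33917494 reads) and WT males (at most 32366042) did not overlap either. Lithium differences set between sexes below carry this limit. Counts with total reads per library as a term of the fit are given where they differ by more than 1.5 times. Trip12 RNA was higher in the 30 libraries labelled HT (5489 to 6953 normalized counts, median 6272) than in the 30 labelled WT (4394 to 6362, median 5812). The allele is not given, so this level checks no label, and every direction between genotypes rests on the labels. Neuronal RNA was abundant in every library, with Camk2a between 66701 and 121825 normalized counts. Summed olfactory bulb markers varied widely within every treatment (934 to 18044 over all libraries). Summed striatal markers varied more under vehicle (9754 to 28607) and fluoxetine (10514 to 22473) than under lithium (10414 to 14494). In bulk tissue, fewer cells of a type and less RNA per cell cannot be told apart. One library, HT fluoxetine male replicate 4, stood apart in 3 of the 5 genes. Log2 differences that leaving it out moved by over 1.5 times are also given without it.

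Plekhg4 was the most uniform of the 5 genes in its lithium difference. In WT females the vehicle libraries held 74.2, 99.8, 93.0, 63.5 and 62.2 normalized counts, the fluoxetine libraries 91.1, 84.4, 121, 93.4 and 75.4, and the lithium libraries 133, 140.3, 107, 109 and 101. In WT males vehicle gave 69.0, 85.0, 54.3, 65.5 and 87.2, fluoxetine 90.3, 66.4, 82.4, 82.6 and 70.0, and lithium 109, 141, 159.9, 158 and 157. Every lithium library of WT mice was above every vehicle library of its own sex. In HT females vehicle gave 81.0, 50.7, 83.2, 68.2 and 80.0, fluoxetine 96.3, 85.0, 68.9, 61.5 and 84.8, and lithium 144, 170.2, 137, 121 and 106. In HT males vehicle gave 42.8, 46.5, 90.5, 65.9 and 62.3, fluoxetine 85.5, 95.9, 65.9, 88.5 and 95.8, and lithium 189, 159.9, 120.0, 119 and 152. All 20 lithium libraries were above all 20 vehicle libraries, and 13 of them were also above all 20 fluoxetine libraries.

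**Figure D1:**
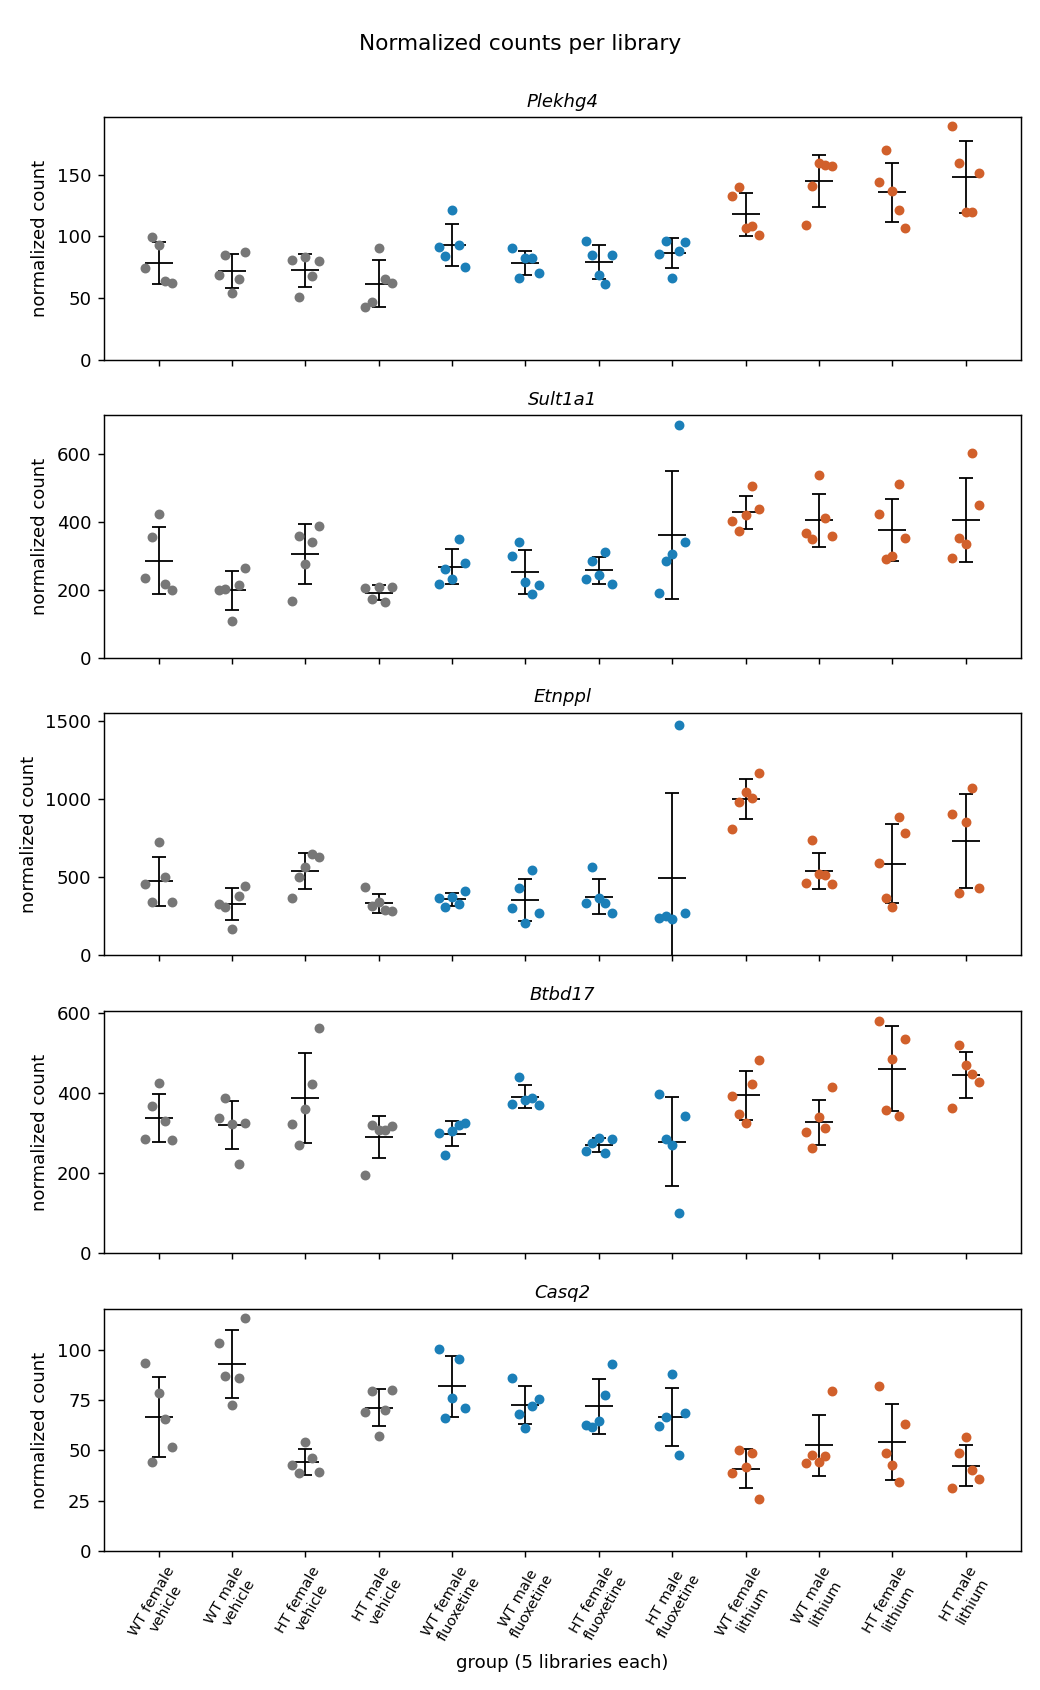
Normalized counts (y axis, linear from 0) of the 5 genes in each of the 12 groups (x axis); points are the 5 libraries of a group, the long horizontal bar is their mean and the whiskers are ± 1 SD. The 4 lithium groups of Plekhg4 lie between 101 and 189 and do not overlap the vehicle groups, and 1 fluoxetine library of HT males stands at 1476 for Etnppl, where the lower whisker leaves the axis.

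Averaged over the 4 combinations of genotype and sex, the log2 difference of Plekhg4 between lithium and vehicle was 0.94 ± 0.08 (SE), or 1.92-fold. All log2 differences were taken after adding 1 to the normalized count, and for genes with few reads they therefore fall short of the true change. This value ranked 42 by size among 17804 genes tested and 1 by its ratio to the standard error. Between lithium and fluoxetine it was 0.69 ± 0.08, with all 20 lithium libraries above the fluoxetine mean of their own genotype and sex. By genotype and sex the difference from vehicle was 0.60 in WT females, 1.003 in WT males, 0.90 in HT females and 1.28 in HT males, each with an SE of 0.17. The background is wide: 22.6% of genes tested were called between lithium and vehicle (11.4% higher, 11.2% lower) and 32.9% between lithium and fluoxetine.

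The difference between fluoxetine and vehicle uses no lithium library and was tested, although the vehicle libraries are those of the contrast that chose the genes. Genes chosen partly for low or high vehicle values lean the same way under fluoxetine. These p-values are therefore not independent of the choice. Plekhg4 was the 1 gene of the 5 called, against 14.5% of all genes tested in that comparison (6.71% higher, 7.78% lower). It rose under fluoxetine by 0.26 ± 0.08 (log2 difference, SE, limma adjusted p = 0.033), and 15 of 20 fluoxetine libraries were above the vehicle mean of their own genotype and sex. In no genotype and sex were the fluoxetine and vehicle ranges separate. The call was lost when any 1 of 8 libraries was left out (adjusted p from 0.052 to 0.058, estimates of 0.23 to 0.24 log2). These were HT fluoxetine female 1, HT vehicle female 2, HT vehicle male 2, WT fluoxetine female 3, WT fluoxetine male 1, WT vehicle female 4 and 5, and WT vehicle male 3. It was also lost with total reads per library in the fit, where the log2 difference was 0.34 (limma adjusted p = 0.21). Because depth did not overlap between these treatments, that fit cannot separate depth from drug.

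In the order of the 12 group means of Plekhg4 the 4 lithium groups came first, from 148 ± 29.4 normalized counts (SD, n = 5) in HT males to 118 ± 17.5 in WT females. The step down to the next group, WT fluoxetine females at 93.1 ± 17.2, was wider than the SD of either group. Below it, each group differed from the next by less than 1 SD, down to HT vehicle males at 61.6 ± 18.9. Neither genotype nor sex passed the test in Plekhg4, nor in any of the 5 genes by limma, DESeq2 or edgeR (limma called 0.152% of all genes between genotypes under vehicle, 0.135% under fluoxetine and 1.19% between sexes). At an unadjusted p under 0.05 there was 1 gene in each: Casq2 under vehicle, Btbd17 under fluoxetine and Etnppl between sexes. For Plekhg4 the log2 difference HT minus WT was -0.18 ± 0.12 under vehicle (limma adjusted p = 0.72) and -0.05 ± 0.12 under fluoxetine (adjusted p = 0.92), and male minus female was -0.01 ± 0.07 (adjusted p = 0.94).

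Sult1a1 was higher under lithium in all 4 combinations of genotype and sex, and its ranges overlapped in females. In WT females the vehicle libraries held 234, 355, 424, 218 and 199 normalized counts, the fluoxetine libraries 217, 259.7, 233, 349.7 and 277, and the lithium libraries 404, 374, 420.1, 505 and 439. In WT males vehicle gave 201, 202, 109, 213 and 266, fluoxetine 301, 340.4, 222, 188 and 214, and lithium 368, 349, 538, 411 and 359.6. The lithium males were all above both other treatments. In HT females vehicle gave 167, 359, 275, 342 and 387, fluoxetine 232, 286, 243, 312 and 216, and lithium 424, 292, 301, 511 and 351. In HT males vehicle gave 205, 172, 209, 164 and 209, fluoxetine 190.3, 284, 305, 685 and 342, and lithium 292, 353, 336, 603 and 451. The highest value of all 60 libraries, 685, was in the fluoxetine library HT male replicate 4.

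The log2 difference of Sult1a1 between lithium and vehicle was 0.77 ± 0.12 (1.70-fold), and 19 of 20 lithium libraries were above the vehicle mean of their own genotype and sex. It was 0.64 in WT females and 0.32 in HT females but 1.07 in WT males and 1.04 in HT males (SE 0.23 each). Lithium and vehicle did not overlap in depth in females, so drug and depth cannot be told apart in the female values. Vehicle females had a median of 308.5 normalized counts and vehicle males 203, while lithium females had 412 and lithium males 364 (n = 10 each). Between lithium and fluoxetine the log2 difference was 0.54 ± 0.12, and 0.61 without HT fluoxetine male replicate 4. It was 0.69 in WT females, 0.70 in WT males and 0.52 in HT females, but 0.26 in HT males (SE 0.23 each). Without that library the HT male value was 0.52. Between fluoxetine and vehicle the log2 difference was 0.23 ± 0.12 (limma adjusted p = 0.19, 95% interval -0.01 to 0.46), with 11 of 20 libraries above their vehicle mean. By genotype and sex it was -0.05 in WT females, -0.20 in HT females, 0.37 in WT males and 0.79 in HT males (SE 0.23 each). In HT males vehicle minus fluoxetine was -0.52 without that library. Group means ran from 428 ± 48.9 (SD, n = 5) in WT lithium females to 192 ± 22.1 in HT vehicle males, the 4 lithium groups came first, and no neighbours in that order differed by more than the wider of their SDs. HT minus WT was 0.05 ± 0.17 under vehicle (limma adjusted p = 0.97) and 0.19 ± 0.17 under fluoxetine (adjusted p = 0.70), and male minus female -0.14 ± 0.10 (adjusted p = 0.39). Without HT fluoxetine male replicate 4 the value under fluoxetine was 0.0532.

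The sulfation pathway was read beside Sult1a1. Of 8 tested sulfotransferases, sulfate donor enzymes, transporters and phosphatases, limma called none between lithium and vehicle (2 had an unadjusted p under 0.05, and DESeq2 and edgeR called 0), and the median log2 difference was 0.0044, against -0.0018 over all genes. In the comparison with fluoxetine 2 rose and 1 fell (37.5% called, beside 32.9% of all genes): Sult2b1 by 0.16 ± 0.06 (limma adjusted p = 0.045), the donor transporter Slc35b2 by 0.09 ± 0.03 (adjusted p = 0.031), and the phosphatase Impad1 at -0.10 ± 0.04 (adjusted p = 0.027). Slc35b2 fell between fluoxetine and vehicle, at -0.10 ± 0.03 (adjusted p = 0.029). None of these 4 calls was kept under quantile normalization. The call of Sult2b1 was lost without any 1 of 24 libraries and that of Slc35b2 against fluoxetine without any 1 of 7. The remaining 6 listed sulfotransferases were not tested here.

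Sult1a1 went with glucocorticoid-induced genes from library to library. After each group's mean was removed, its log2 value had a Pearson r of 0.69 and a Spearman coefficient of 0.65 over 60 libraries with the mean of 24 such genes, and r was 0.62 without the 2 libraries farthest out in Sult1a1. The genes most like it within groups were Vwf (von Willebrand factor of endothelium, r = 0.77, Spearman 0.71), Igfbp3 (an insulin-like growth factor binding protein, r = 0.76, Spearman 0.64) and Map3k6 (a kinase on the glucocorticoid list, r = 0.75, Spearman 0.69). These 3 are the highest of 12840 genes compared and share libraries, depth and dissection with it, so r is a description. Over the 12 group means the most like were Smim3 (r = 0.94), the lipid transporter Mfsd2a (0.93) and the astrocyte connexin Gjb6 (0.93).

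Of the 24 glucocorticoid-induced genes, 16 rose and none fell between lithium and vehicle, with a median log2 difference of 0.26. Those called were 66.7% of the list, beside 22.6% of all genes. Fkbp5, a chaperone of the glucocorticoid receptor, rose by 0.77 ± 0.09 (limma adjusted p = 3.9e-09), Map3k6 by 0.73 ± 0.09 (adjusted p = 5.6e-08) and the transcription factor Zbtb16 by 0.52 ± 0.07 (adjusted p = 5.6e-08). Against fluoxetine 14 rose and 1 fell (limma called 0 that fell without HT fluoxetine male replicate 4 or without HT lithium male replicate 3), with Dusp1, a MAP kinase phosphatase, at 0.60 ± 0.11 (adjusted p = 4e-05) and Tsc22d3 at 0.34 ± 0.06 (adjusted p = 1.4e-05). Between fluoxetine and vehicle 6 rose and 5 fell: Zbtb16 and Map3k6 rose by 0.58 ± 0.07 (adjusted p = 2.6e-08) and 0.65 ± 0.09 (adjusted p = 2.6e-06), and Arl4d fell, at -0.42 ± 0.08 (adjusted p = 0.00018). The share of the list called was 62.5% between lithium and fluoxetine, beside 32.9% of all genes. Between fluoxetine and vehicle it was 45.8%, beside 14.5% of all genes. With depth in the fit, 10 rose between lithium and vehicle, and between fluoxetine and vehicle 3 rose and none fell. The summed list ran from 26491 to 31401 normalized counts under vehicle, 24672 to 37593 under fluoxetine and 29290.0 to 35626 under lithium. Its part in the level of Sult1a1 was not tested.

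**Figure D2:**
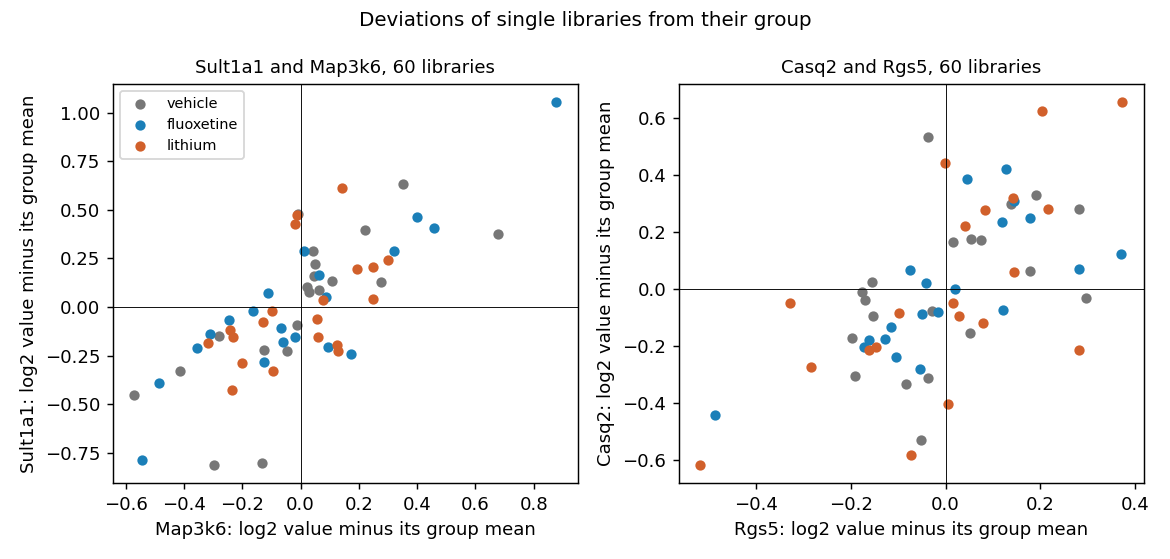
Deviations of single libraries from the mean of their own group, in log2 units, for Sult1a1 (y) against Map3k6 (x) on the left and Casq2 (y) against Rgs5 (x) on the right; each point is 1 of 60 libraries, coloured by treatment. Points of all 3 treatments rise from lower left to upper right in both panels (r = 0.75 and 0.62), and the library farthest to the upper right on the left is HT fluoxetine male replicate 4.

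Etnppl had the widest spread within groups of the 5 genes (pooled SD of 0.53 in log2, against 0.27 for Plekhg4). In WT females the vehicle libraries held 458, 346, 729, 506 and 345 normalized counts, the fluoxetine libraries 368, 313, 375, 328 and 413, and the lithium libraries 809.5, 986, 1045, 1007 and 1168. In WT males vehicle gave 332, 313, 168, 380.2 and 448, fluoxetine 304, 431, 211, 548 and 273, and lithium 464, 743, 521, 515 and 459. In WT mice of either sex every lithium library was above every vehicle library of its own sex. In HT females vehicle gave 366, 500.1, 569, 651 and 634, fluoxetine 336, 568, 371, 335 and 272, and lithium 590.3, 369.7, 312, 887 and 786. In HT males vehicle gave 438, 315, 344, 292 and 286, fluoxetine 241, 253, 233, 1476 and 275, and lithium 907, 400.1, 858, 1069.9 and 434. HT lithium libraries ranged widely in both sexes, with 4 between 312 and 434 and 6 between 590.3 and 1069.9.

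Between lithium and vehicle the log2 difference of Etnppl was 0.74 ± 0.16 (1.67-fold), with 18 of 20 lithium libraries above their vehicle mean. It was 1.12 in WT females, 0.76 in WT males and 1.04 in HT males, but 0.03 in HT females (SE 0.32 each), where the ranges overlapped. The difference of the lithium response between HT and WT was -0.41 ± 0.32. Between lithium and fluoxetine the log2 difference was 0.91 ± 0.16, wider than from vehicle, with 19 of 20 lithium libraries above their fluoxetine mean, and 1.04 without HT fluoxetine male replicate 4. Etnppl did not pass the test between fluoxetine and vehicle (log2 difference -0.18 ± 0.16, limma adjusted p = 0.51), although 16 of 20 fluoxetine libraries were below their vehicle mean. Without HT fluoxetine male replicate 4 that difference was -0.30 (adjusted p = 0.11).

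Females had more Etnppl RNA than males under vehicle (medians of 503 and 324 normalized counts, n = 10 each) and, in WT mice alone, under lithium. Under lithium male minus female was -0.91 in WT and 0.32 in HT mice (log2, SE 0.32 each), so the medians over both genotypes (848 in females, 518 in males) join estimates of opposite sign. WT lithium males and females did not overlap in depth, so sex and depth cannot be told apart in the WT value. Male minus female over all treatments was -0.33 ± 0.13 in log2 and did not pass the test (limma adjusted p = 0.16, background 1.19% of genes called). It was called when HT fluoxetine male replicate 4 was left out, at -0.41 (adjusted p = 0.04). HT minus WT was 0.15 ± 0.23 under vehicle (adjusted p = 0.94) and 0.06 ± 0.23 under fluoxetine (adjusted p = 0.95), and the latter was -0.19 without that library. Group means ran from 1003 ± 129 (SD, n = 5) in WT lithium females to 328 ± 103.5 in WT vehicle males. The first group exceeded the second, HT lithium males at 734 ± 299.8, by less than the SD of the latter, and the groups below differed from their neighbours by less than the wider SD. The order was not one of treatment: HT vehicle females (544 ± 116) stood level with WT lithium males (540.3 ± 117).

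In HT fluoxetine male replicate 4, Etnppl stood at 1476 normalized counts against 233 to 275 in the 4 other libraries of its group, Sult1a1 at 685 against 190.3 to 342, and Btbd17 at 101 against 269.8 to 398. Plekhg4 at 88.5 lay within its group (65.9 to 95.9 in the others), and Casq2 at 47.9 lay below it (62.0 to 87.9). In the same library the summed glucocorticoid-induced genes were above the group's other libraries (37593 against 29197 to 32295), and so were striatal markers (15890.0 against 10667 to 12238) and myelinating oligodendrocyte markers (169149.7 against 123995 to 151636). Endothelial and mural markers (16791 against 18039 to 21754), fibroblast markers (6497 against 7959 to 10063), astrocyte markers (184389 against 192576 to 204823) and microglia markers (12385 against 13766 to 14645) were below them. The part of these differences in the 3 genes was not tested.

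Sult1a1 and Etnppl rose and fell together within groups. Their deviations from group means had r = 0.59 and Spearman 0.43 over 60 libraries, and r = 0.48 without HT fluoxetine male replicate 4. The r was 0.75 among the 20 vehicle libraries, 0.65 under fluoxetine and 0.36 under lithium. Plekhg4 had r from -0.04 to 0.16 with the other 4 genes over all libraries, with different values by treatment. Its r with Btbd17 was 0.54 under vehicle and -0.19 under lithium, with Sult1a1 0.35 and -0.35, and with Etnppl 0.18 and -0.43. Btbd17 and Casq2 had r = 0.30 and Spearman 0.27. Etnppl and Btbd17 had r = -0.40, which was -0.10 without the library that stood apart.

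Genes most like Etnppl within groups were Pygm (muscle glycogen phosphorylase, also made by astrocytes, r = 0.71, Spearman 0.71), Selenop (the selenium carrier selenoprotein P, r = 0.71, Spearman 0.67) and the cytochrome P450 gene Cyp2j9 (r = 0.71, Spearman 0.63), each over 60 libraries. Over the 12 group means they were Hsd17b11 (r = 0.94), the amino acid transporter Slc1a5 (0.93) and Wdfy1 (0.92).

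Genes of phosphoethanolamine metabolism were read beside Etnppl. Of 18 genes, 5 rose and none fell between lithium and vehicle (27.8% called, beside 22.6% of all genes), with a median log2 difference of 0.05. Gdpd1 rose by 0.16 ± 0.04 (limma adjusted p = 0.0008), Chpt1, which makes phosphatidylcholine, by 0.16 ± 0.05 (adjusted p = 0.0085) and choline kinase Chka by 0.12 ± 0.03 (adjusted p = 0.0085). In lithium against fluoxetine 8 rose and none fell (44.4% called, beside 32.9% of all genes). Pcyt2, the enzyme that activates phosphoethanolamine for lipid synthesis, rose by 0.15 ± 0.04 (adjusted p = 0.0041), and between fluoxetine and vehicle it fell, at -0.15 ± 0.04 (adjusted p = 0.0096). The other gene that fell under fluoxetine was Ptdss2, a phosphatidylserine synthase, at -0.08 ± 0.03 (adjusted p = 0.047). Those called between fluoxetine and vehicle were 11.1% of the list, beside 14.5% of all genes. Adding depth to the fit left 3 that rose in each lithium comparison and none was called between fluoxetine and vehicle. The call of Ptdss2 was lost without any 1 of 28 libraries.

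Astrocyte markers were read beside Etnppl. Of 20, 5 rose and none fell between lithium and vehicle (25.0% called, beside 22.6% of all genes), with a median log2 difference of 0.04. Gjb6 rose by 0.41 ± 0.06 (limma adjusted p = 4.9e-07) and Fgfr3 by 0.29 ± 0.05 (adjusted p = 2.4e-05). Relative to fluoxetine 8 rose and 3 fell (55.0% called, beside 32.9% of all genes), with Fgfr3 at 0.28 ± 0.05 (adjusted p = 1.2e-05). Once depth was in the fit 2 rose against vehicle, and 7 rose and 1 fell against fluoxetine. The summed markers ran from 177760.5 to 229598 normalized counts under vehicle, 166629 to 223426 under fluoxetine and 176302 to 254968 under lithium. Within groups the mean of the list had r = 0.03 with Etnppl and 0.58 (Spearman 0.50) with Btbd17. Both r include HT fluoxetine male replicate 4. That library was 2.05 in log2 above its group mean in Etnppl and below the rest of its group in the summed astrocyte markers. Such opposite deviations can lower r, so the r of 0.03 does not show that Etnppl varied apart from these markers.

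**Figure D3:**
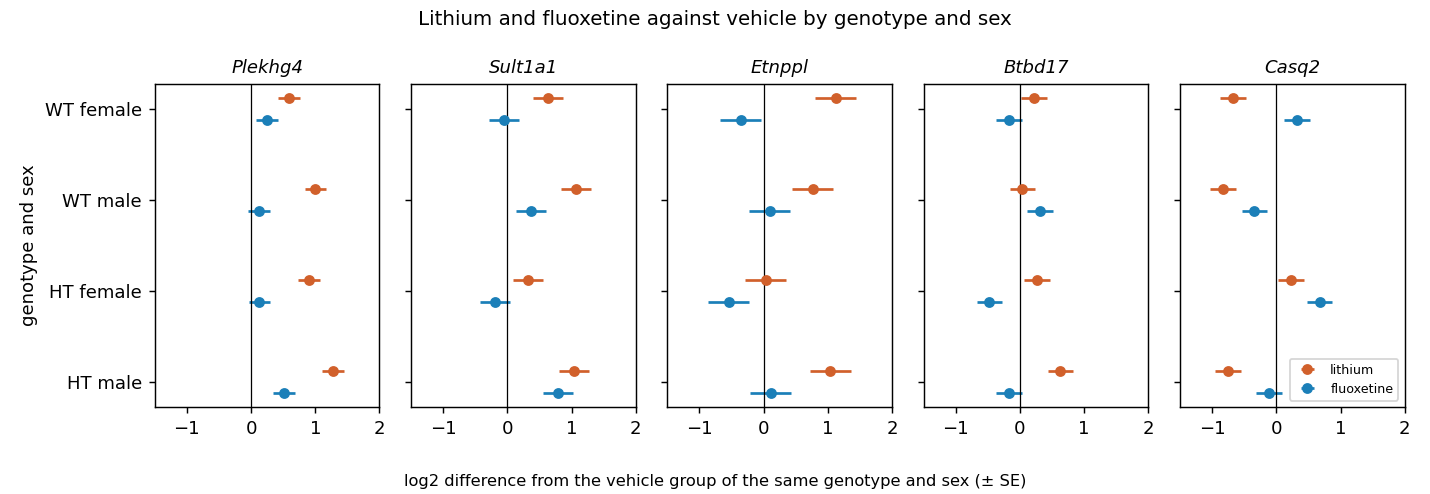
Log2 difference of lithium (orange) and fluoxetine (blue) from the vehicle group of the same genotype and sex (x axis, in log2 units, whiskers ± SE) for each of the 5 genes; rows are the 4 combinations of genotype and sex, 5 libraries per group. Lithium lies right of 0 in all rows for Plekhg4 and Sult1a1, at 0.03 for Etnppl in HT females, and left of 0 for Casq2 except in HT females (0.23).

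Btbd17 had the narrowest lithium difference of the 5 genes. In WT females the vehicle libraries held 287, 369, 427, 330.0 and 284 normalized counts, the fluoxetine libraries 300.3, 245, 306, 321 and 325, and the lithium libraries 394, 349, 326, 424 and 482. In WT males vehicle gave 339.6, 388, 324, 224 and 326, fluoxetine 373, 441, 383, 389 and 371, and lithium 303, 264, 339.7, 314 and 417. In WT mice lithium and vehicle overlapped in both sexes. In HT females vehicle gave 323, 272, 361, 424 and 563, fluoxetine 256, 275, 288, 250.3 and 286, and lithium 582, 357, 487, 344 and 537. In HT males vehicle gave 196, 322, 309, 309 and 319, fluoxetine 398, 286, 269.8, 101 and 342, and lithium 364, 520.3, 470.1, 449 and 429.7. HT males were the 1 combination in which all lithium libraries were above all vehicle libraries.

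The log2 difference of Btbd17 between lithium and vehicle was 0.29 ± 0.10 (1.22-fold) and ranked 1593 by size of 17804, with 14 of 20 lithium libraries above their vehicle mean. It was 0.63 ± 0.20 in HT males and between 0.04 and 0.26 in the other 3. Between lithium and fluoxetine it was 0.41 ± 0.10, with 16 of 20 above their fluoxetine mean, but -0.27 in WT males, against 0.39 in WT females, 0.73 in HT females and 0.80 in HT males (0.47 without HT fluoxetine male replicate 4). The log2 difference between fluoxetine and vehicle was -0.13 ± 0.10 (limma adjusted p = 0.43) and -0.04 without HT fluoxetine male replicate 4.

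Libraries labelled HT had more Btbd17 RNA than WT under lithium (medians of 459 and 344 normalized counts, n = 10 each, log2 difference 0.33 ± 0.14) and less under fluoxetine (280.5 and 348). The fluoxetine difference of -0.38 ± 0.14 did not pass the test (limma adjusted p = 0.26, 0.135% of genes called), and it was -0.21 without HT fluoxetine male replicate 4. Under vehicle HT minus WT was 0.01 ± 0.14 (adjusted p = 0.99). Male minus female was -0.08 ± 0.08 (adjusted p = 0.61), and -0.0245 without that library. Group means ran from 461 ± 106.5 (SD, n = 5) in HT lithium females to 271 ± 17.1 in HT fluoxetine females, and no neighbours in that order differed by more than the wider of their SDs.

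Btbd17 varied within groups with markers of several glial and vascular cell types. Besides astrocyte markers, r was 0.56 (Spearman 0.40) with endothelial and mural markers, 0.51 (Spearman 0.46) with microglia markers and 0.44 (Spearman 0.42) with oligodendrocyte precursor markers, over 60 libraries. HT fluoxetine male replicate 4 was low both in Btbd17 and in these lists. Without it r was 0.55 with astrocyte, 0.45 with endothelial and mural, 0.44 with microglia and 0.48 with precursor markers. The genes most like it within groups were Tril (a Toll-like receptor co-receptor, r = 0.79, Spearman 0.56), Fgfrl1 (r = 0.77, Spearman 0.55) and Apln (the peptide apelin, r = 0.76, Spearman 0.61). Without the 2 libraries farthest out in Btbd17 their r fell to 0.63, 0.56 and 0.62. Over the 12 group means the most like were Ctdnep1 (r = 0.92), Acot8 (0.90) and Dguok (0.90).

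Casq2 was the 1 gene of the 5 that was lower under lithium. In WT females the vehicle libraries held 93.5, 44.3, 78.4, 65.4 and 51.7 normalized counts, the fluoxetine libraries 100.1, 66.3, 75.9, 95.1 and 71.2, and the lithium libraries 38.6, 50.1, 41.7, 48.8 and 25.7. In WT males vehicle gave 103, 86.9, 72.8, 85.9 and 116, fluoxetine 85.9, 68.1, 61.0, 72.1 and 75.5, and lithium 44.0, 47.9, 44.4, 47.1 and 79.4. Among WT males 4 of 5 lithium libraries were below every vehicle library. In HT females vehicle gave 42.8, 39.0, 54.4, 46.1 and 39.5, fluoxetine 62.7, 61.4, 64.6, 77.3 and 93.1, and lithium 82.1, 48.8, 42.6, 34.2 and 62.9. In HT males vehicle gave 69.3, 79.6, 57.2, 70.2 and 80.1, fluoxetine 62.0, 66.4, 87.9, 47.9 and 68.7, and lithium 31.2, 48.7, 56.9, 40.2 and 35.7. HT females differed from the other 3 combinations in their vehicle level, which lay below every fluoxetine library of the same mice and within the lithium range.

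The log2 difference of Casq2 between lithium and vehicle was -0.51 ± 0.10 (1.42-fold lower), with 17 of 20 lithium libraries below their vehicle mean. It was -0.67 in WT females, -0.83 in WT males and -0.75 in HT males, but 0.23 in HT females (SE 0.20 each). The lithium response differed by 0.49 ± 0.20 between HT and WT and by -0.57 ± 0.20 between males and females, given with no test because it is not stated in which mice the genes were picked. Lithium and vehicle were separate in depth in females alone, and the part of depth in the difference between sexes was not tested. Between lithium and fluoxetine the log2 difference was -0.64 ± 0.10, with 18 of 20 lithium libraries below their fluoxetine mean. It was lower in all 4 combinations, from -0.996 in WT females to -0.45 in HT females. Fluoxetine and vehicle did not pass the test (0.14 ± 0.10, limma adjusted p = 0.39), and the 4 values ran from -0.34 in WT males to 0.68 in HT females.

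Under vehicle Casq2 had a median of 55.8 normalized counts in libraries labelled HT and 82.2 in WT (n = 10 each). The log2 difference of -0.45 ± 0.14 did not pass over all genes (limma adjusted p = 0.21, unadjusted p = 0.002, 0.152% of genes called). HT minus WT was -0.16 ± 0.14 under fluoxetine (adjusted p = 0.69; -0.11 without HT fluoxetine male replicate 4) and 0.04 ± 0.14 under lithium. Male minus female was 0.16 ± 0.08 (adjusted p = 0.27), and within HT vehicle mice every male library was above every female one. Group means ran from 92.9 ± 16.7 (SD, n = 5) in WT vehicle males to 41.0 ± 9.8 in WT lithium females. No neighbours in that order differed by more than the wider of their SDs, and HT vehicle females (44.3 ± 6.3) stood among the lithium groups.

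Other genes of calcium storage were read beside Casq2. Of 24 genes, 3 rose and 4 fell between lithium and vehicle (29.2% called, beside 22.6% of all genes), with a median log2 difference of -0.03. The store chaperones Hspa5 and Calr rose by 0.40 ± 0.06 (limma adjusted p = 5.3e-07) and 0.18 ± 0.03 (adjusted p = 7.4e-05), while the ryanodine receptor Ryr3 fell, at -0.20 ± 0.04 (adjusted p = 0.00032). Against fluoxetine 3 rose and 8 fell (45.8% called, beside 32.9% of all genes). The calcium pump Atp2a3 fell, at -0.40 ± 0.07 (adjusted p = 2.9e-05), and the store sensor Stim2 at -0.14 ± 0.03 (adjusted p = 8.9e-05), while Asph rose by 0.12 ± 0.03 (adjusted p = 0.00031). Between fluoxetine and vehicle 4 rose and none fell (16.7% called, beside 14.5% of all genes), Stim2 by 0.18 ± 0.03 (adjusted p = 2.5e-05). A fit with depth gave 1 that rose and 5 that fell between lithium and fluoxetine, and none between fluoxetine and vehicle (Stim2 adjusted p = 0.16). Without WT fluoxetine male replicate 3 the number that fell between lithium and fluoxetine was also 5.

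Casq2 varied within groups with vascular markers. The mean of 20 endothelial and mural markers had r = 0.53 and Spearman 0.51 with it over 60 libraries, and r = 0.47 without the 2 libraries farthest out in Casq2. The genes most like it were Rgs5, a pericyte marker on that list (r = 0.62, Spearman 0.64), the zinc transporter Slc39a8 (r = 0.61, Spearman 0.63) and Olfml3 (r = 0.61, Spearman 0.55). Over the 12 group means they were Gab2 (r = 0.94), Ipo9 (0.92) and Rflnb (0.90). Of the vascular markers 2 rose and 2 fell between lithium and vehicle, 1 rose and 8 fell between lithium and fluoxetine, and 6 rose (2 with depth in the fit) and none fell by limma between fluoxetine and vehicle, where DESeq2 called 1 that fell. The glucose transporter Slc2a1 rose under lithium by 0.45 ± 0.06 (limma adjusted p = 2.7e-07) and Cldn5, a tight junction protein, fell, at -0.25 ± 0.07 (adjusted p = 0.0066). Smooth muscle actin Acta2 fell between lithium and fluoxetine, at -0.43 ± 0.08 (adjusted p = 6.3e-05). Ly6c1 of the same list rose under lithium in both comparisons, by 0.36 against vehicle and 0.33 against fluoxetine. The summed list ran from 15224 to 21991 normalized counts under vehicle, 16791 to 23107 under fluoxetine and 15159 to 24506 under lithium, and its part in the level of Casq2 was not tested.

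Of the other cell type lists, those of myelinating oligodendrocytes (11 of 15 called) and striatum (9 of 15) exceeded the 22.6% of all genes called between lithium and vehicle by most. Of 15 myelinating oligodendrocyte markers 11 fell and none rose against vehicle (median log2 difference -0.34), with Opalin at -0.56 ± 0.12 (limma adjusted p = 0.00042). Against fluoxetine 11 fell (73.3% called, beside 32.9% of all genes). With depth in the fit, 11 fell against vehicle and 4 against fluoxetine. Their sum ran from 59536 to 194034 normalized counts under lithium, 76492 to 204993 under vehicle and 105840.0 to 203465 under fluoxetine. Of 15 striatal markers 9 fell and none rose against vehicle (median -0.55), with Adora2a at -0.91 ± 0.23 (adjusted p = 0.0022). With depth in the fit 4 fell. Their sums ran from 10414 to 14494 under lithium (median 12177) and 9754 to 28607 under vehicle (median 11637), so the median of the sums was not lower under lithium and the highest sum was in a vehicle library. The shares called in the remaining lists ran from 0% to 28.6%. Of 15 oligodendrocyte precursor markers limma called none that rose (DESeq2 and edgeR called 1) and 4 that fell, of 14 microglia markers 4 rose (1 with depth in the fit) and none fell, of 15 pan-neuronal markers 1 rose and 2 fell, and of 14 fibroblast markers 1 fell (none with depth in the fit). Limma called none of 13 olfactory bulb and 8 choroid plexus and ependymal markers, of which 0 and 1 had an unadjusted p under 0.05, and DESeq2 and edgeR called 0 of either. Within groups the mean of the striatal list had r between -0.22 and 0.10 with the 5 genes and the oligodendrocyte list r between -0.22 and 0.24, and their part in the lithium differences was not tested.

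**Figure D4:**
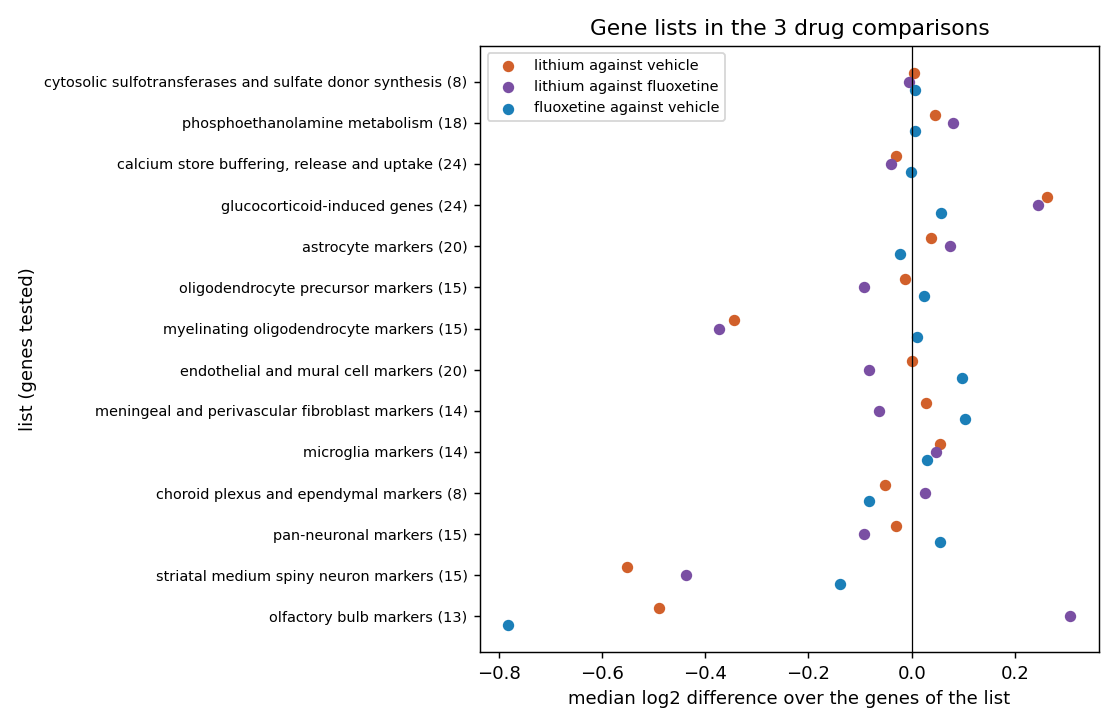
Median log2 difference (x axis) over the tested genes of each of 14 lists (y axis, number of genes tested in brackets) in lithium against vehicle (orange), lithium against fluoxetine (purple) and fluoxetine against vehicle (blue). Glucocorticoid-induced genes lie near 0.26 in lithium against vehicle and myelinating oligodendrocyte and striatal markers at -0.34 and -0.55, while the 3 lists around Sult1a1, Etnppl and Casq2 lie near 0.

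Fluoxetine by genotype was tested for the 5 genes and none was called by limma (adjusted p of 1 for each), nor was any of the 17804 genes (786 had an unadjusted p under 0.05, DESeq2 called 1 and edgeR 0). The estimates, HT response minus WT response in log2, were 0.13 ± 0.17 for Plekhg4, 0.13 ± 0.23 for Sult1a1, -0.09 ± 0.32 for Etnppl, -0.39 ± 0.20 for Btbd17 and 0.29 ± 0.20 for Casq2. Without HT fluoxetine male replicate 4 they were 0.0013 for Sult1a1, -0.34 for Etnppl and -0.23 for Btbd17. Set side by side, lithium and fluoxetine differed from vehicle by 0.94 and 0.26 in Plekhg4, 0.77 and 0.23 in Sult1a1, 0.74 and -0.18 in Etnppl, 0.29 and -0.13 in Btbd17, and -0.51 and 0.14 in Casq2. Both differences share the vehicle libraries. Signs were the same for Plekhg4 and Sult1a1 and opposite for the other 3, of which fluoxetine passed the test in none.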

How the data were processed

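Poly(A) RNA libraries of 60 mouse prefrontal cortices were grouped by labelled genotype, treatment and sex. Reads were prepared with a stranded mRNA kit, per the labels' protocols. Per the submitters' processing notes the tools were Salmon 0.11.2, R 3.6.0 and DESeq2 1.19.11 with build GRCm38. The annotation, strand setting and gene filter are not given in the sources used here. The authors deposited 1 signal value per gene and library, a DESeq2 normalized count, and multiplying by 1 factor per library gave whole reads for 100.0% of values (tolerance 0.01). Gene names and exons came from GENCODE vM21 (18077 of 18088 IDs matched), promoters from RefSeq.

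After removal of 284 genes that reached 10 normalized counts in fewer than 5 libraries, 17804 were fitted by limma 3.58.1 (trend; R 4.3.3) on log2(value + 1) with 12 group means and 48 residual degrees of freedom. Calls are at a Benjamini-Hochberg adjusted p under 0.05 over all genes tested. DESeq2 1.42.0 and edgeR 4.0.16 on the recovered reads, other normalizations (TMM, quantile), filters and pseudocounts, the compared libraries alone, depth as a covariate, a replicate block and leaving out each library were alternatives. The limma fit was tested on simulated counts, in fluoxetine against vehicle alone. The simulation gave every gene the same dispersion, which need not match that of the 5 genes. DESeq2 and edgeR were not tested in this way.

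The 5 genes and the gene lists were chosen with earlier results of these data known. The mice in which the 5 genes were picked are not stated, so their differences between genotypes and sexes under lithium, for which tests had been planned, carry no p. Besides these 5 and Trip12, the text names, per gene, the 3 most correlated of 12840 genes (mean normalized count 50 or more, predicted genes left out) over libraries and over group means. From each list it names up to 3 called genes with the smallest p in a lithium comparison, and its marker with the highest mean where given. List genes named for fluoxetine against vehicle were taken in the same order after their values were seen. One gene list is not reported here.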

Additional observations from a re-analysis of the deposited data

Results flagged for a closer look

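Within each of the 12 groups, the highest and lowest of the 5 libraries were checked for a gap to the next that exceeded 0.71 of the range (Dixon's critical value). In 60 checks of the 5 genes, 5 libraries passed, where chance alone gives about 1 in 20. They were Btbd17 in HT vehicle male replicate 1 (195.6 normalized counts), Btbd17 in WT fluoxetine male replicate 2 (441), Casq2 in WT lithium male replicate 5 (79.4), Etnppl in HT fluoxetine male replicate 4 (1476) and Etnppl in WT lithium male replicate 2 (743).

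In 4 pairs of groups every fluoxetine library moved one way from its vehicle mean in one combination of genotype and sex and the opposite way in the other. Btbd17 differed by 0.31 (log2, fluoxetine minus vehicle) in WT males and by -0.47 in HT females and -0.17 in WT females. Casq2 differed by 0.68 in HT females and 0.32 in WT females and by -0.34 in WT males. These differences between combinations were not tested.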

How the results depend on the processing

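In all alternatives run, the 5 genes kept their direction between lithium and vehicle and between lithium and fluoxetine. With depth as a covariate, limma called 0 of the 5 between fluoxetine and vehicle (Plekhg4 0.34, adjusted p = 0.21), and the log2 difference became -0.0714 for Casq2 and 0.11 for Etnppl, while Btbd17, male minus female, became 0.0125. Between fluoxetine and vehicle this covariate cannot be separated from the drug. Fluoxetine by genotype in Etnppl was 0.17 with DESeq2 and 0.16 with edgeR, and Plekhg4, male minus female, was 0.0121 with quantile normalization. Leaving out each library gave 0 to 1 of the 5 called between fluoxetine and vehicle and 0 to 1 between sexes. Estimates that crossed 0 ranged from -0.0583 to 0.0823 (Btbd17, HT minus WT, vehicle), -0.0484 to 0.15 (Sult1a1, HT minus WT, vehicle), -0.19 to 0.15 (Etnppl, HT minus WT, fluoxetine), -0.0838 to 0.0024 (Plekhg4, HT minus WT, fluoxetine), -0.34 to 0.0222 (Etnppl, fluoxetine by genotype) and -0.0373 to 0.00695 (Plekhg4, male minus female); the cause was not tested.

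Replicate numbers did not pair the libraries (mean correlation of deviations 0.00198 over 330 pairs with the same number, from -0.634 to 0.744), and with a replicate block Plekhg4 rose by 0.26 under fluoxetine (adjusted p = 0.038), with no call of the 5 genes changed. Of 91 calls of named list genes, 27 were lost with depth in the fit, 11 under another alternative and 8 without some single library, and 1 estimate reversed in 1 setting (Slc1a2, fluoxetine against vehicle). Against fluoxetine, the astrocyte markers that fell were 1 to 5 without single libraries, and the striatal markers that fell were 3 without HT fluoxetine male replicate 4 or WT fluoxetine female replicate 3. The calcium store genes that fell between lithium and fluoxetine numbered 5 to 8 without single libraries. Fitting only the compared libraries is the full fit for male against female and was not repeated. Casq2 and Plekhg4 rest on as few as 30 and 42 reads in a library, which limits how small a difference could be detected in them.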
